A study of Mus musculus with 8 samples.

Results

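The Wnt module described here holds 56 genes, taken by symbol from a fixed list and matched to the Ensembl mouse gene identifiers of the count table, which has 55487 identifiers. All 56 matched, each to 1 identifier: 10 ligands, 2 genes of ligand secretion, 15 receptors, 7 genes of the R-spondin arm, 8 secreted inhibitors, and 14 cytoplasmic and nuclear effectors. RNA was sequenced from hearts of WT mice and of mice with a global deletion of Set7 (Set7KO; the gene is Setd7, a lysine methyltransferase), bred from heterozygous parents. Mice of each genotype were given saline or isoproterenol, a beta-adrenergic agonist used to load the heart, injected under the skin at 60 mg/kg on 14 days in succession, with 2 libraries in each of the 4 groups. Strain, age and sex, and whether a library is 1 animal or a pool, are given in no source used here, so p-values measure only the spread between these libraries. The targeted gene is deleted in every cell of the Set7KO mice, not in 1 cell type.

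Wnt ligands are lipid-modified secreted proteins that bind Frizzled receptors together with the co-receptors Lrp5 and Lrp6, or with Ror1, Ror2 and Ryk. In the canonical branch, binding stops the destruction complex of Axin, Apc and Gsk3 from marking beta-catenin for breakdown, and beta-catenin then works with TCF/LEF factors on genes such as Axin2. Secreted inhibitors trap ligands or block co-receptors. R-spondins act through Lgr4, Lgr5 and Lgr6 against the ubiquitin ligases Znrf3 and Rnf43, which clear Frizzled from the membrane. In the heart the pathway is known from development and from the response to injury, where it is quiet in healthy adult muscle and studied in fibroblasts and remodelling.

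Library depth ran from 27847069 to 51705705 counts, so that 3 counts, taken here as the lower limit of detection, are worth 0.0598 to 0.112 CPM, the count scaled to a common library total. Setd7 was at 43.7 and 43.0 CPM in WT saline, 58.1 and 72.6 CPM in WT isoproterenol, 4.45 and 5.70 CPM in Set7KO saline, and 3.79 and 3.92 CPM in Set7KO isoproterenol. The labels match this gene in all 8 libraries, with a fitted log2 difference of -3.59 ± 0.18 between genotypes (edgeR adjusted p = 0.000356). Summed cardiomyocyte markers stood between 71156 and 94621 CPM, and 3 lung markers were at 0 in every library. The WT isoproterenol libraries and Set7KO saline replicate 2 stood apart from the other 5. In these 3, GC-rich genes were low relative to AT-rich genes, with a difference between the medians of the top and bottom of 5 equal GC classes of -0.89 to -0.63 on the log2 scale, against 0.17 to 0.71 in the others. The title of Set7KO saline replicate 2 carries the letter code of the WT saline titles, whose meaning is not given, and neutrophil markers summed to 85.4 CPM there against 3.28 to 11.7 CPM elsewhere. Values without that replicate, or with offsets for the GC content and length of each gene, are given beside the results they move.

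Beta-catenin was by far the most abundant member and the ligands were scarce. Levels of different genes were compared as normalised CPM per kilobase of exon, averaged over the 8 libraries. Of the 56 members, 48 passed the filter on low counts and were tested, 40 had a mean of at least 1 CPM, and 27 stood below 1 CPM per kilobase. Ctnnb1 (beta-catenin) was at 65.1 CPM per kilobase, followed by Dvl1 at 15.9, Lrp5 at 10.8, Axin1 at 9.37 and Lgr6 at 8.51 CPM per kilobase. Next in order were Fzd4 at 7.30, Ryk at 6.10 and Dvl3 at 5.77 CPM per kilobase. The range of Ctnnb1 over libraries did not meet that of any other member, whereas the ranges of Lrp5, Axin1, Lgr6 and Fzd4 overlapped one another. The 10 member ligands together summed to 6.31 CPM per kilobase, less than Fzd4 alone.

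**Figure D1:**
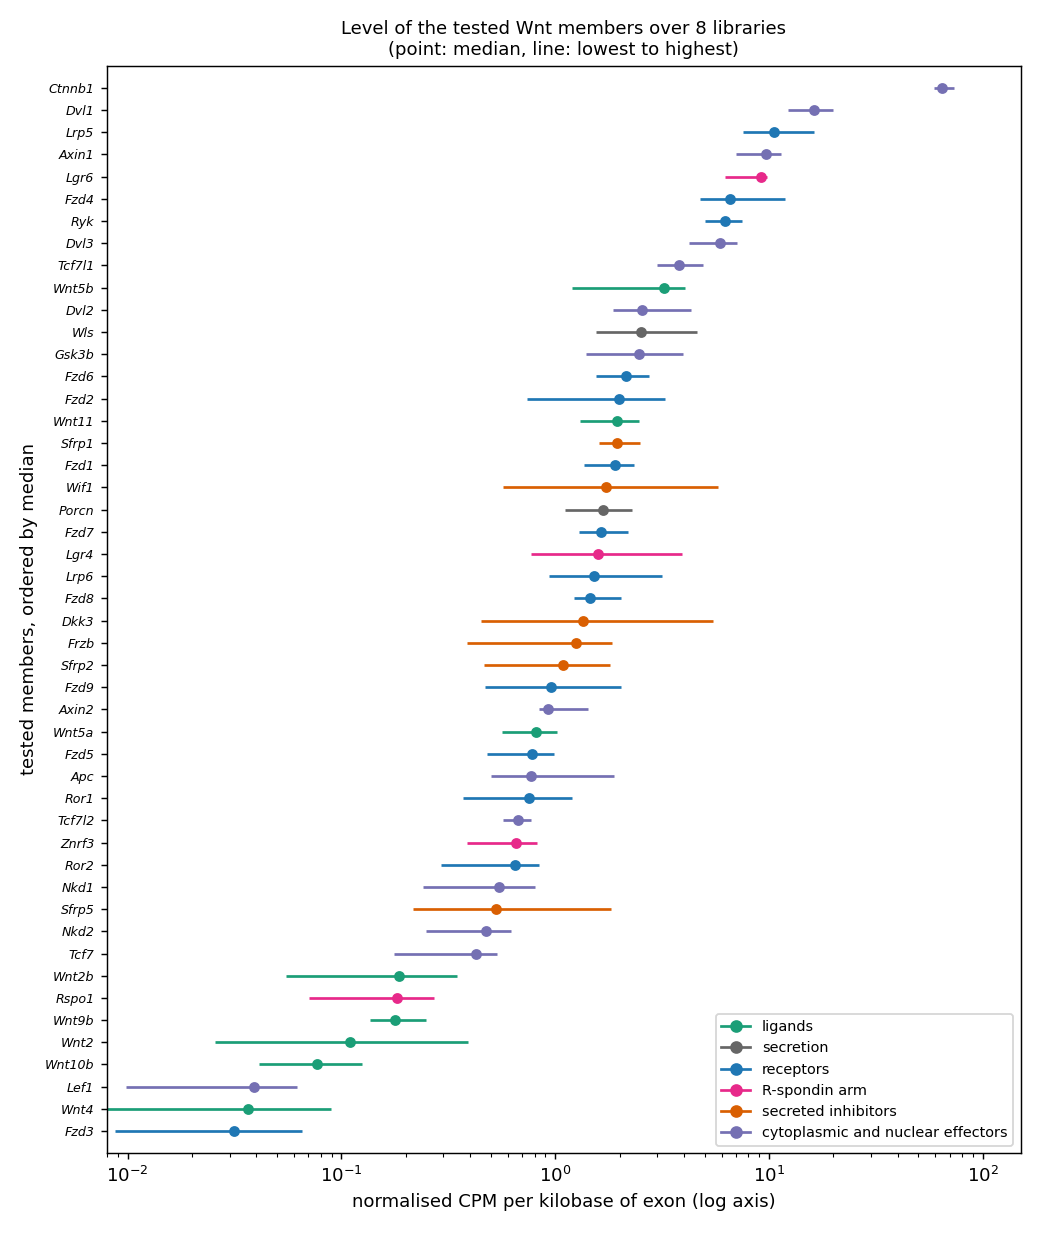
Level of the 48 tested members in normalised CPM per kilobase of exon on a log axis, ordered by the median of 8 libraries (point) with a line from the lowest to the highest library. Ctnnb1 stands alone at the top and most ligands lie below 1. The lowest Wnt4 libraries, at 0, fall off the left edge of the axis.

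The 8 members that were not tested were the ligands Wnt10a and Wnt16, the receptor Fzd10, the R-spondin arm genes Lgr5, Rspo3 and Rnf43, and the inhibitors Sfrp4 and Dkk2. Wnt10a and Wnt16 had 0 counts in all 8 libraries, which allows up to 0.0598 to 0.112 CPM per library by counting error alone. Fzd10 reached at most 1 count and Dkk2 at most 2 counts, so these 4 members were undetected at this depth. Lgr5, a stem cell receptor for R-spondins, had 6 counts in WT isoproterenol replicate 1 and 0 in every other library. Rspo3 reached at most 5 counts.

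No member passed the test in any of the 7 comparisons. edgeR's quasi-likelihood test, adjusted over all 17636 genes tested, called 0 of 48 members in each. In the same fit it called 0% of all genes for isoproterenol against saline in WT, in Set7KO and for the interaction of genotype and treatment, 0.051% for isoproterenol averaged over genotypes, and 0.00567% for each of the 3 comparisons of genotype. DESeq2, a second count model, called 7 members for isoproterenol in WT (19.1% of the genes it gave an adjusted p), 5 for the interaction (16.3%) and 2 for genotype after isoproterenol (2.37%). It called 1 for isoproterenol in Set7KO (0.584% of genes), 1 for isoproterenol averaged (1.42%), 0 for genotype after saline (0.121%) and 0 for genotype averaged (0.0113%). In 5 of the comparisons it gave low members such as Wnt4 no adjusted p. The 7 in WT were Lrp6, Wls, Apc, Lgr4, Lrp5, Sfrp5 and Fzd4, the 5 in the interaction were Tcf7l1, Lrp6, Apc, Wif1 and Lrp5, and the 2 after isoproterenol were Apc and Wif1. limma-voom called 0 members in each comparison. All values below are therefore descriptions of size and spread, with the adjusted p beside the main ones.

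At an unadjusted p under 0.05 the shares of members were compared with those of all genes. Isoproterenol averaged over genotypes gave 7 of 48 members (14.6%), against 9.4% of all genes, with 5 higher against 4.5% and 2 lower against 4.9%. In WT alone it gave 13 members (27.1%), against 31.7% of all genes, with 9 higher against 18.5% and 4 lower against 13.3%. In Set7KO it gave 6 (12.5%), against 9.66%, with 4 higher against 3.65% and 2 lower against 6.01%. Comparing genotypes after saline gave 5 members (10.4%), against 10.3%, with 2 higher in Set7KO against 7.83% and 3 lower against 2.46%. After isoproterenol it gave 6 (12.5%), against 19.9%, with 2 higher against 7.22% and 4 lower against 12.7%. The interaction gave 11 (22.9%), against 30.6%, with 6 above 0 against 12% and 5 below 0 against 18.6%, and genotype averaged over treatments gave 0 against 1.56%. The median log2 fold change of the 48 members was 0.07 for isoproterenol averaged, where that of all genes was 0.02. Members are not replicates of a condition. Their shares lay on both sides of those of all genes, no count by direction exceeded 9 members, and whether the shares differ was not tested.

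Secreted inhibitors made up 4 of the 7 members that differed at an unadjusted p under 0.05 for isoproterenol averaged over genotypes. Of the 6 tested, Wif1, Sfrp2 and Frzb were higher after isoproterenol and Sfrp5 was lower, against 9.4% of all genes in either direction. The median log2 fold change of the 6 was 0.51, against 0.02 for all genes. Across the whole module, 4 members lay higher in all 4 isoproterenol libraries than in any saline library (2.11% of all genes did), and these were Wif1, Sfrp2, Frzb and the receptor Fzd2. The R-spondin gene Rspo1 was the single member lower without overlap (2.01% of all genes). It was at 0.358 to 0.523 CPM in saline and 0.136 to 0.346 CPM in isoproterenol, with an unadjusted p of 0.15 in edgeR. Groups of 2 libraries often did not overlap. The shares of all genes without overlap were not counted for the 4 comparisons between groups of 2 libraries. A lack of overlap in those comparisons, where given below, describes the libraries of 1 gene and is not a result about the members.

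The promoter windows of Wif1, Sfrp2 and Frzb are shown because these 3 inhibitors stood higher together. They are RefSeq windows on GRCm38.p6 from 250 bases before to 50 bases after an annotated gene start, written 5′ to 3′ on the strand of the gene. Wif1 lies at chr10:121033754-121034053 on the plus strand, Sfrp2 at chr3:83766071-83766370 on the plus strand, and Frzb at chr2:80447347-80447646 on the minus strand.
Wif1: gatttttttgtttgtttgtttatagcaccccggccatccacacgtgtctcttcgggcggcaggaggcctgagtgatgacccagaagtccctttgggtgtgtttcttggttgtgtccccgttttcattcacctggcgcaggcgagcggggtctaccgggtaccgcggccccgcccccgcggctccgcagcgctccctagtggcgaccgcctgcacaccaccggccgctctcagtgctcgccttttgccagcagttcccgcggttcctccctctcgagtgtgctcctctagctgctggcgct
Sfrp2: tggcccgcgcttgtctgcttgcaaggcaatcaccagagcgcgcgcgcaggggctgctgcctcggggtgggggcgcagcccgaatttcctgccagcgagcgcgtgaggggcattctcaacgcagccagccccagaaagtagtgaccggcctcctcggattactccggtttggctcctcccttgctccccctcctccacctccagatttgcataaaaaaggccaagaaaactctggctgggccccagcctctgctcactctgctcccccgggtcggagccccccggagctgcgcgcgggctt
Frzb: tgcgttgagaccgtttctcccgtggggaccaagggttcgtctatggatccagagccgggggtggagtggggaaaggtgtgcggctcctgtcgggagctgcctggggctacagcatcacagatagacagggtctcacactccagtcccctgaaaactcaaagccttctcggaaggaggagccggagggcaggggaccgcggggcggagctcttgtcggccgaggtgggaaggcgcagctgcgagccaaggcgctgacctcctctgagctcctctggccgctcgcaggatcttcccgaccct
These windows were searched on both strands for the TCF/LEF core letters CTTTGAA and CTTTGAT, and none of the 3 holds either. A window was found for 39 of the 56 members, 49 windows in all. Of the members, only Wnt11 and Wnt5b, the member ligands with the highest level per kilobase, have a match, each in 1 of their windows, which makes 4.08% of member windows against 8.65% of all 32851 windows in the table. These are shown as the windows that carry the letters, in capitals. The Wnt11 window, at chr7:98834862-98835161 on the plus strand, holds CTTTGAT on the opposite strand at position -51 from the start. The Wnt5b window, at chr6:119449337-119449636 on the minus strand, holds it on the strand of the gene at position -71. This window belongs to a start inside the gene, which spans 119432531 to 119544347. The Wnt5b window at the 5′ end of the gene, chr6:119544298-119544597, holds neither set of letters.
Wnt11: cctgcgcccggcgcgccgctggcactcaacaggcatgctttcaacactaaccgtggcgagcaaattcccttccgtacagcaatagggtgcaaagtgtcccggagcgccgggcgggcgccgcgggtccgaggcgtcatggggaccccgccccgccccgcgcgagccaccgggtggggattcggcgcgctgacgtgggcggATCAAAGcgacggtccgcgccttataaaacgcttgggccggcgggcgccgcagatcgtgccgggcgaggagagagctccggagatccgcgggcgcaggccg
Wnt5b: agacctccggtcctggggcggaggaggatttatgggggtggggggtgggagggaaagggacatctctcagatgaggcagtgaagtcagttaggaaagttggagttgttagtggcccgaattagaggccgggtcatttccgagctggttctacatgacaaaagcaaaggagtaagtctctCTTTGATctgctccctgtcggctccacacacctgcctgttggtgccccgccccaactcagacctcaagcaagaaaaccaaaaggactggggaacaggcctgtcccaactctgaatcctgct
The GC content of member windows had a median of 66.3%, against 52.7% over all windows. A match describes letters in a window and is not a binding site.

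Wif1, a secreted protein that binds Wnt ligands directly, had the largest averaged isoproterenol response among the 48 tested members (chromosome 10, 121033960 to 121100650, plus strand). It stood at 1.38 and 3.78 CPM in WT saline and 5.76 and 4.56 CPM in WT isoproterenol. In the Set7KO saline group it stood at 1.66 and 1.71 CPM, and in the Set7KO isoproterenol group at 13.4 and 14.0 CPM. All 4 isoproterenol libraries lay above all 4 saline libraries, and the 2 Set7KO isoproterenol libraries lay above both WT ones. The averaged log2 fold change was 2.01 ± 0.31 (4.02-fold, 95% interval 1.30 to 2.71, edgeR adjusted p = 0.0859). Per genotype it was 1.00 ± 0.43 in WT (1.99-fold, adjusted p = 0.152) and 3.02 ± 0.45 in Set7KO (8.11-fold, adjusted p = 0.284), all by edgeR. The difference between those responses, the interaction, was 2.02 ± 0.60 (edgeR adjusted p = 0.0979), and after isoproterenol Set7KO exceeded WT by 1.41 ± 0.42 (edgeR adjusted p = 0.229).

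The averaged response of Wif1 kept a similar size in other settings. With GC and length offsets its averaged log2 fold change was 1.99 ± 0.29 (edgeR adjusted p = 0.0932), and without Set7KO saline replicate 2 it was 2.02 (0.0577). DESeq2 (adjusted p = 6.91e-07) and edgeR with no filter on low counts (0.00198) called it, and the same 2 settings called it in Set7KO alone (1.7e-07 and 0.0121), as did edgeR without Set7KO saline replicate 1 (0.0427). With single libraries left out, the averaged value lay between 1.73 and 2.44. The interaction depended more on single libraries, at 1.15 without WT saline replicate 2 and 2.58 without WT saline replicate 1. The brown fat marker list moved with Wif1: its 2 genes summed to 132 and 119 CPM in Set7KO isoproterenol and to 29.3 to 71.7 CPM elsewhere. All of that sum was Cidea, and Ucp1, the defining gene of brown fat, was at 0 in all 8 libraries. The summed fibroblast markers were also highest in the Set7KO isoproterenol libraries, at 4232 and 5608 CPM against 1690 to 4027 CPM elsewhere. Gsn made up 3356 and 4924 CPM of these sums. Of the 7 fibroblast markers, only Col1a2 was highest in both of these libraries. The part of either marker list in the Wif1 level was not tested.

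Sfrp2 and Frzb, secreted proteins with a Frizzled-like domain that bind Wnt ligands, had smaller responses. Sfrp2 was at 1.68 and 1.99 CPM in WT saline, 3.22 and 2.42 CPM in WT isoproterenol, 2.28 and 0.997 CPM in Set7KO saline, and 3.89 and 3.26 CPM in Set7KO isoproterenol. Frzb was at 2.69 and 3.71, 5.08 and 4.62, 3.80 and 1.26, and 5.99 and 4.28 CPM in the same order. For both genes the lowest of the 8 libraries was Set7KO saline replicate 2. The averaged log2 fold change was 0.88 ± 0.30 for Sfrp2 (edgeR adjusted p = 0.389), 1.00 ± 0.26 with offsets (0.24), and 0.63 without that library. For Frzb it was 0.82 ± 0.34 (edgeR adjusted p = 0.507), 0.82 ± 0.33 with offsets (0.442), and 0.51 without it. The same library also had the lowest summed fibroblast markers, 1690 CPM against 2846 to 5608 CPM in the others. Gsn made up 1241 CPM of that sum. Of the 7 fibroblast markers, Gsn, Col1a1, Col1a2 and Tcf21 were lowest there, while Dcn, Lum and Pdgfra were not, and their part in the levels of Sfrp2 and Frzb was not tested. In bulk tissue, fewer cells of a type and less RNA per cell cannot be told apart.

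**Figure D2:**
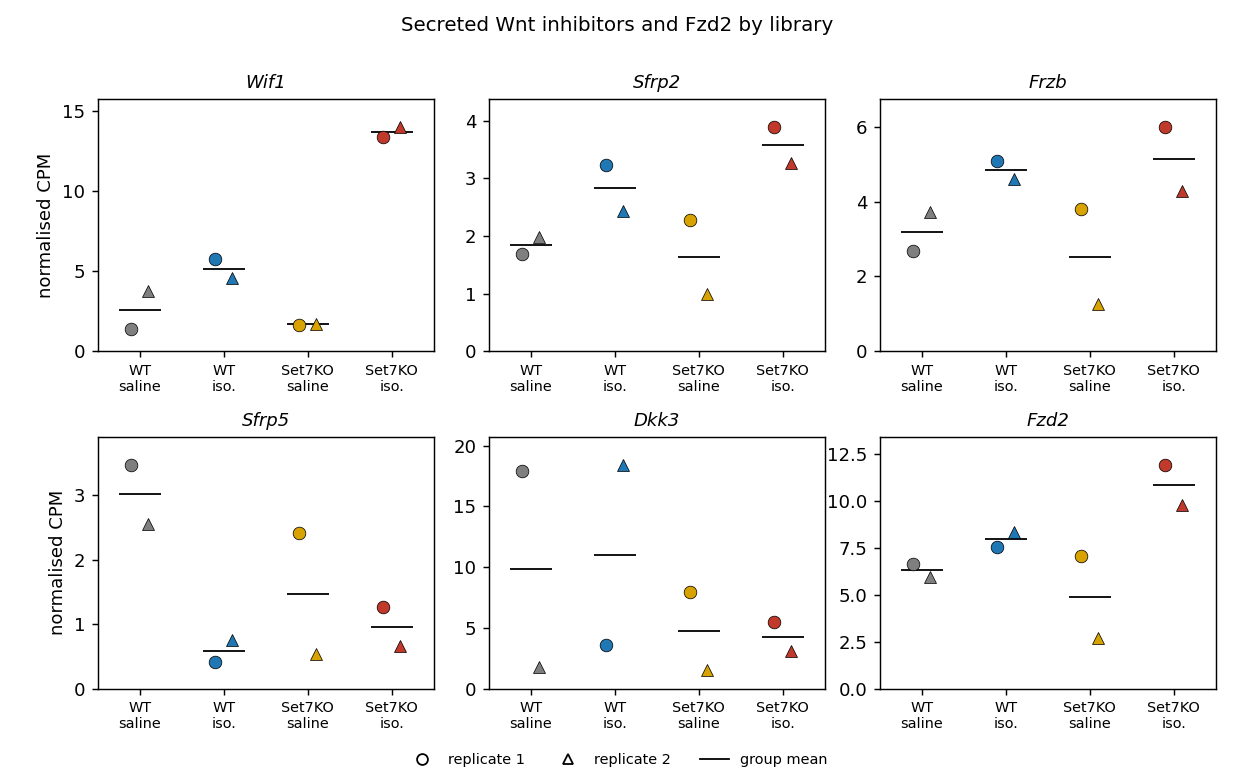
Normalised CPM of 5 secreted inhibitors and of Fzd2 in each library, with circles for replicate 1, triangles for replicate 2 and a bar for the group mean. Wif1 is highest in the Set7KO isoproterenol libraries at 13.4 and 14.0 CPM, and Dkk3 splits the replicates of WT saline and WT isoproterenol.

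Sfrp5, a related inhibitor, was the secreted inhibitor that stood lower after isoproterenol. It was at 3.47 and 2.55 CPM in WT saline and 0.408 and 0.750 CPM in WT isoproterenol, then 2.41 and 0.538 CPM in Set7KO saline and 1.26 and 0.659 CPM in Set7KO isoproterenol. In WT the groups did not overlap (log2 fold change -2.38 ± 0.71, edgeR adjusted p = 0.0966, and -1.77 with offsets). In Set7KO they overlapped (-0.57 ± 0.68), and the averaged log2 fold change was -1.48 ± 0.49 (edgeR adjusted p = 0.377). It was -1.85 without Set7KO saline replicate 2 and -0.77 without Set7KO saline replicate 1.

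Dkk3, a Dickkopf family member whose action on Wnt differs between settings, had the second highest level per kilobase of the inhibitors (2.22 CPM per kilobase, after Wif1 at 2.38). It was at 17.9 and 1.79 CPM in WT saline, 3.61 and 18.4 CPM in WT isoproterenol, 7.93 and 1.52 CPM in Set7KO saline, and 5.48 and 3.07 CPM in Set7KO isoproterenol. In both WT groups the replicates differed by more than the 2 group means did. The 3 highest libraries were also the 3 highest for the atrial marker Myl7, which was at 445 CPM in WT saline replicate 1, 97.1 CPM in WT isoproterenol replicate 2 and 58.0 CPM in Set7KO saline replicate 1, and at 0.386 to 5.30 CPM in the other 5. Of the 5 atrial markers, Myl4 and Sln were highest in the same 3 libraries, while Nppa and Bmp10 were not. Nppa was at 567 CPM in Set7KO isoproterenol replicate 1 against 359 CPM in Set7KO saline replicate 1. Bmp10 was above 0 only in Set7KO saline replicate 2. The 5 markers summed to 206 to 2625 CPM over the libraries. That sum was also higher in Set7KO isoproterenol replicate 1, at 579 CPM, than in Set7KO saline replicate 1, at 492 CPM. The part of atrial tissue in the Dkk3 level was not tested. Sfrp1, at 7.02 to 10.8 CPM, varied least of the tested inhibitors.

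Sfrp4, which lies on chromosome 13 from 19623104 to 19632994, did not pass the filter and had counts only in isoproterenol libraries. Its counts were 0 in all 4 saline libraries, and 13, 8, 2 and 6 in WT isoproterenol replicates 1 and 2 and Set7KO isoproterenol replicates 1 and 2. The 2 counts in Set7KO isoproterenol replicate 1 lie below the limit of 3 counts set for a single library. Against a floor of 3 counts over the saline libraries together, the pooled isoproterenol level of 0.208 CPM was at least 9.57-fold higher. That pooled floor is 0.0218 CPM, lower than the 0.0598 to 0.112 CPM of single libraries. With no filter, edgeR gave it an adjusted p of 0.0615 for isoproterenol averaged. Rnf43, also not tested and a membrane ubiquitin ligase that clears Frizzled, went the other way, with 38 counts over the saline libraries and 4 over the isoproterenol libraries (edgeR adjusted p = 0.11 with no filter). Both were singled out after their counts were seen, and both rest on few reads.

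Among the 10 member ligands, 3 had a mean above 1 CPM, and all 3 belong to the group known mainly for branches other than the canonical one. Wnt5b was at 10.7 and 8.62 CPM in WT saline, 5.54 and 9.53 CPM in WT isoproterenol, 8.55 and 3.19 CPM in Set7KO saline, and 7.26 and 9.33 CPM in Set7KO isoproterenol. Wnt11 was at 10.2 and 8.09, 5.38 and 5.95, 8.84 and 6.54, and 8.04 and 10.2 CPM in the same order. Wnt5a ranged from 4.43 to 7.96 CPM. Wnt11 was lower in the WT isoproterenol libraries than in the WT saline and Set7KO isoproterenol libraries without overlap, at -0.69 ± 0.28 for isoproterenol in WT (edgeR adjusted p = 0.138). With offsets that value was -0.22, without Set7KO saline replicate 2 it was -0.71, and the 3 lowest Wnt11 libraries were the 3 in which GC-rich genes were low. The other 5 tested ligands, Wnt2, Wnt2b, Wnt4, Wnt9b and Wnt10b, had means between 0.169 and 0.844 CPM. Wnt9a, a ligand that is not a member, had a mean of 9.71 CPM and ranged from 7.51 to 12.2 CPM.

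Wnt2b, at a mean of 0.816 CPM, had the largest interaction of any tested member and was singled out after its values were seen. It was at 0.784 and 0.232 CPM in WT saline and 1.27 and 1.41 CPM in WT isoproterenol. It was at 0.780 and 1.46 CPM in Set7KO saline and 0.301 and 0.293 CPM in Set7KO isoproterenol. It was thus higher after isoproterenol in WT and lower in Set7KO, in each case without overlap. Groups of 2 libraries often did not overlap, and the share of all genes that did so was not counted for these comparisons. The log2 fold changes were 1.41 ± 0.58 in WT and -1.91 ± 0.61 in Set7KO, with an interaction of -3.32 ± 0.84 (edgeR adjusted p = 0.09). The interaction was -4.06 with offsets (edgeR adjusted p = 0.193) and between -4.42 and -2.66 with single libraries left out. It passed at an adjusted p of 0.02 in edgeR with no filter and of 0.017 without Set7KO saline replicate 1.

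Wls and Porcn, which carry and lipidate Wnt ligands for secretion, differed from each other. Wls was at 13.7 and 18.7 CPM in WT saline, 40.3 and 32.5 CPM in WT isoproterenol, 14.9 and 31.6 CPM in Set7KO saline, and 25.7 and 16.3 CPM in Set7KO isoproterenol. In WT it stood higher after isoproterenol by 1.17 ± 0.39 on the log2 scale (edgeR adjusted p = 0.107), and with GC and length offsets that value was -0.066 ± 0.27. Without Set7KO saline replicate 2 it was 1.16 and was called (edgeR adjusted p = 0.0319). Porcn was at 3.81 and 5.30, 4.47 and 4.73, 6.5 and 3.33, and 5.93 and 6.88 CPM, with groups that overlapped in both treatment comparisons.

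Some receptors and effectors with AT-rich transcripts, Lrp6, Apc, Fzd4 and Gsk3b, shared the pattern of Wls. Lrp6, the co-receptor, was at 16.6 and 12.8 CPM in WT saline, 40.4 and 43.0 CPM in WT isoproterenol, 17.5 and 40.1 CPM in Set7KO saline, and 24.0 and 15.2 CPM in Set7KO isoproterenol. Apc, the scaffold of the destruction complex, was at 11.3 and 8.05, 25.3 and 30.3, 13.5 and 26.9, and 10.2 and 10.1 CPM. Fzd4, the most abundant Frizzled, was at 40.3 and 33.0, 79.6 and 63.1, 31.9 and 56.4, and 46.4 and 41.6 CPM in that order. In all 3 genes the highest 3 libraries were the 2 WT isoproterenol libraries and Set7KO saline replicate 2, the libraries in which AT-rich genes were high. Gsk3b, the kinase of the destruction complex, chosen after its values were seen, was highest in the same 3, at 33.2 to 38.7 CPM against 13.8 to 27.5 CPM. Fzd3, the member with the lowest GC content at 40.3%, was also highest in those 3, at 0.590 to 0.837 CPM against 0.112 to 0.439 CPM. Some other members with AT-rich transcripts did not share the pattern. Tcf7l2, with a GC content of 47.3%, was lowest in Set7KO saline replicate 2, at 5.0 CPM, and Ror1, at 47.2%, was highest in WT saline replicate 2, at 6.89 CPM.

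For isoproterenol in WT the log2 fold change was 1.52 ± 0.35 for Apc (edgeR adjusted p = 0.0941) and 1.5 ± 0.40 for Lrp6 (0.0944). It was 0.96 for Fzd4 and 0.99 for Gsk3b. With GC and length offsets these 4 values were 0.45, 0.68, 0.42 and 0.23. Without Set7KO saline replicate 2 they were 1.5, 1.48, 0.95 and 0.97, and edgeR called Fzd4 (adjusted p = 0.0291) but not Gsk3b (0.0566). The interaction of Apc was -2.51 ± 0.49 (edgeR adjusted p = 0.0876) and that of Lrp6 was -2.06 ± 0.56 (0.0911), which the offsets moved to -0.88 and -0.83. The difference of Apc between genotypes after isoproterenol was -1.45 ± 0.35 (edgeR adjusted p = 0.229), and -0.45 with offsets. After saline, Apc and Lrp6 stood higher in Set7KO by 1.06 and 0.97, and by 0.50 and 0.27 without Set7KO saline replicate 2. With either of the Set7KO saline libraries left out, edgeR called both genes for isoproterenol in WT (adjusted p from 0.0179 to 0.0217), as it did with no filter (0.0218 and 0.0258).

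**Figure D3:**
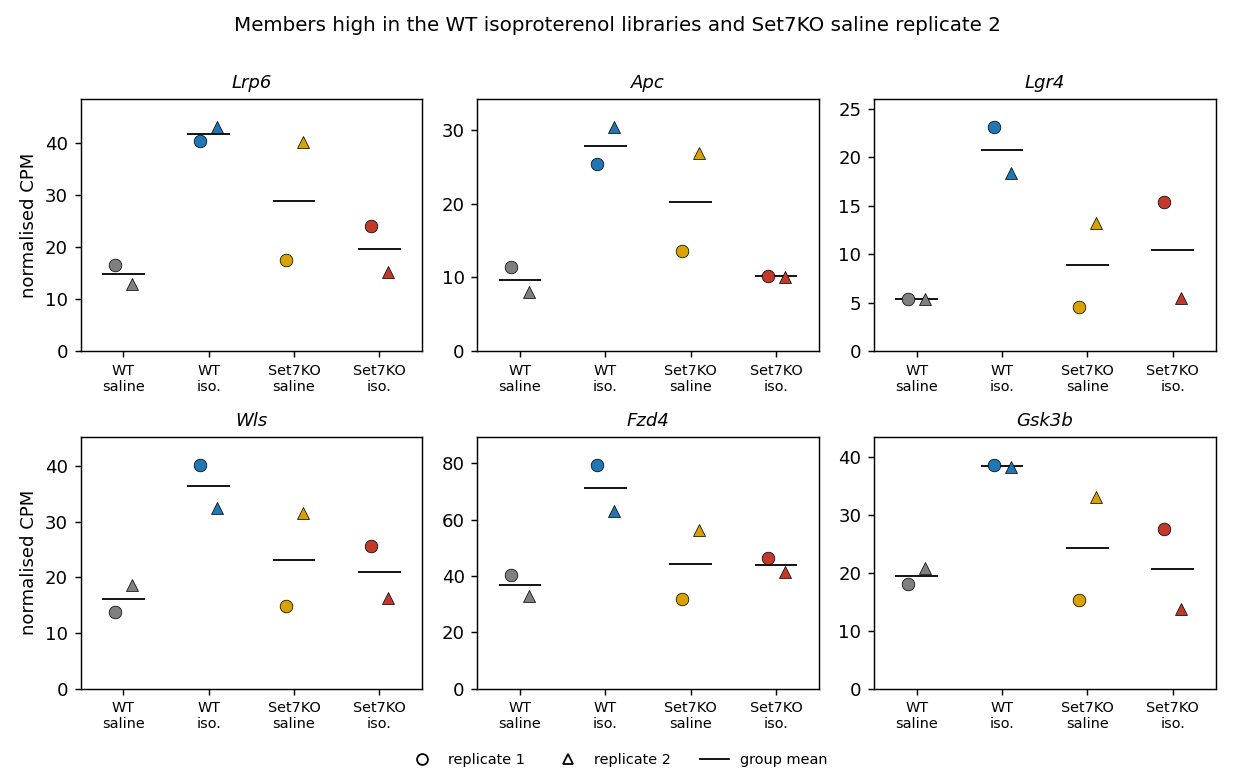
Normalised CPM of 6 members in each library, with circles for replicate 1, triangles for replicate 2 and a bar for the group mean. In each panel the WT isoproterenol libraries are high, and Set7KO saline replicate 2 stands well above replicate 1.

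Across the 48 tested members, the log2 fold change for isoproterenol in WT was related to the GC content of the longest transcript, with a Spearman rho of -0.67, against -0.71 across 17604 genes. The points share libraries, and genes are not independent replicates. For the interaction rho was 0.63 for the members and 0.73 for all genes. With offsets, isoproterenol averaged gave 8 members, where 10.4% of all genes had an unadjusted p under 0.05. Also with offsets, 8 members had an unadjusted p under 0.05 for isoproterenol in WT in place of 13, and 16.3% of all genes did. The interaction then gave 5 members against 15.1% of all genes, and genotype after saline gave 1 against 6.44%. The offsets shifted the median of all genes for the interaction from -0.05 to 0.10.

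**Figure D4:**
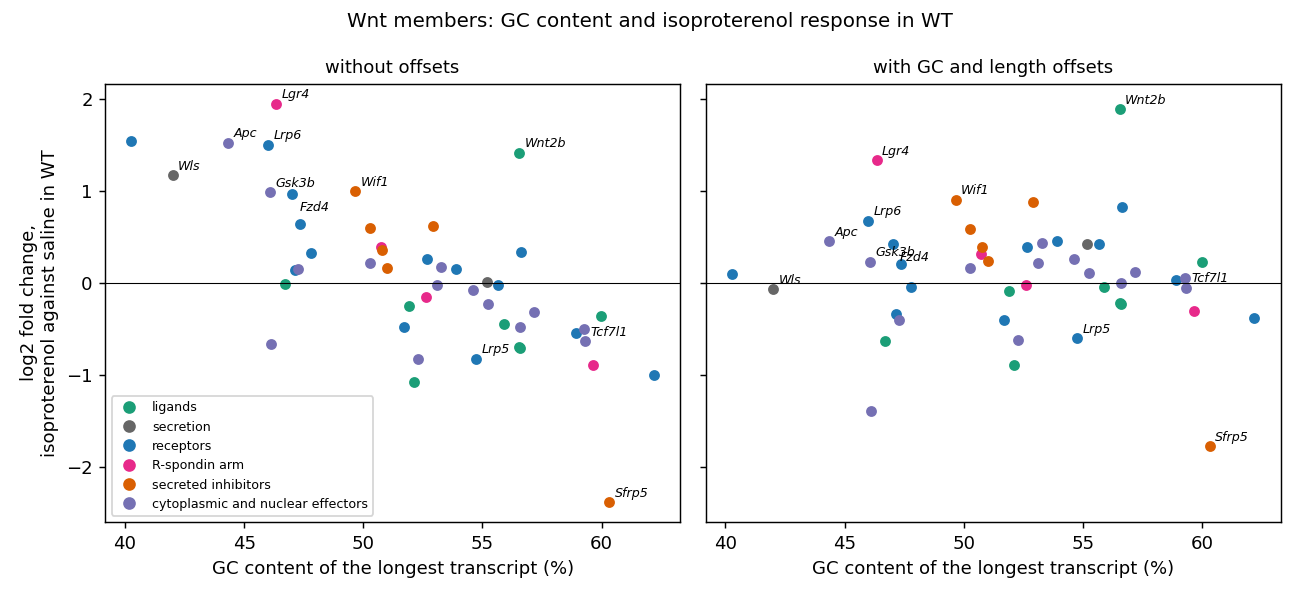
Log2 fold change of each tested member for isoproterenol in WT against the GC content of its longest transcript, without offsets (left) and with GC and length offsets (right), coloured by role. The slope on the left, with a rho of -0.67, flattens on the right. The offsets are fitted to the GC trend of these same libraries, so the flattening is built in. On the right, Lgr4, Wif1, Wnt2b and Sfrp5 remain farthest from 0 among the labelled genes.

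The other receptors spread in both directions. Lrp5, a co-receptor that is the most abundant receptor of the module, was at 121 and 159 CPM in WT saline, 73.8 and 84.2 CPM in WT isoproterenol, 105 and 89.7 CPM in Set7KO saline, and 108 and 99.1 CPM in Set7KO isoproterenol. In WT it stood lower after isoproterenol without overlap, at -0.82 ± 0.22 on the log2 scale (edgeR adjusted p = 0.0949), and at -0.60 ± 0.18 with offsets. Without Set7KO saline replicate 2 it was -0.84 and was called (edgeR adjusted p = 0.0318). Its value in Set7KO was 0.09 ± 0.22, and the interaction was 0.91 ± 0.31 (edgeR adjusted p = 0.116). Fzd2, a Frizzled of mesenchymal cells, was at 6.64 and 5.97, 7.58 and 8.34, 7.05 and 2.71, and 12.0 and 9.81 CPM. It was highest in the Set7KO isoproterenol libraries and lowest in Set7KO saline replicate 2. Its averaged log2 fold change was 0.75 ± 0.29 (edgeR adjusted p = 0.463), 0.96 ± 0.21 with offsets (0.184), and 0.47 without that replicate.

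Fzd9 was at 2.39 and 4.67 CPM in WT saline, 1.5 and 2.05 CPM in WT isoproterenol, 1.98 and 1.08 CPM in Set7KO saline, and 2.92 and 2.34 CPM in Set7KO isoproterenol. After saline it stood lower in Set7KO, at -1.22 ± 0.45 on the log2 scale (edgeR adjusted p = 0.483), at -0.91 ± 0.41 with offsets, and at -0.81 without Set7KO saline replicate 2. Fzd6 was at 7.50 and 8.78, 13.2 and 12.2, 8.91 and 11.7, and 11.8 and 8.85 CPM, and its value for isoproterenol in WT was 0.64 ± 0.27, or 0.21 with offsets. The remaining tested receptors, Fzd1, Fzd3, Fzd5, Fzd7, Fzd8, Ror1, Ror2 and Ryk, had means from 0.463 CPM for Fzd3 to 27.7 CPM for Ryk. None of these 8 had an unadjusted p under 0.05 in edgeR in any of the 7 comparisons.

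In the R-spondin arm, Lgr6 was the most abundant gene, and Lgr4 had the largest response to isoproterenol in WT of the 4 tested genes. Lgr6 was at 67.3 and 64.7 CPM in WT saline, 54.2 and 64.6 CPM in WT isoproterenol, 46.9 and 63.8 CPM in Set7KO saline, and 62.3 and 42.8 CPM in Set7KO isoproterenol. Lgr4 was at 5.34 and 5.40, 23.1 and 18.3, 4.52 and 13.2, and 15.3 and 5.49 CPM in that order. The WT isoproterenol libraries were the highest for Lgr4, and the replicates of both Set7KO groups were far apart. Its value for isoproterenol in WT was 1.95 ± 0.58 (3.85-fold, edgeR adjusted p = 0.0967), and 1.33 ± 0.45 with offsets (0.224). With offsets the libraries read 6.28 and 6.42, 17.5 and 14.5, 5.0 and 11.0, and 15.6 and 6.97 CPM, so the WT groups still did not overlap. In Set7KO the value was 0.23 ± 0.56. Averaged over genotypes it was 1.09 ± 0.40 (edgeR adjusted p = 0.438), and 1.57 without Set7KO saline replicate 2. Znrf3 ranged from 3.04 to 6.47 CPM and Rspo1 from 0.136 to 0.523 CPM.

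The effectors ranged from Ctnnb1, the most abundant member, to Lef1, which stayed below 1 CPM in every library. Ctnnb1 was at 336 and 320 CPM in WT saline, 382 and 379 CPM in WT isoproterenol, 307 and 330 CPM in Set7KO saline, and 338 and 312 CPM in Set7KO isoproterenol. Dvl1, a Dishevelled that relays the signal from Frizzled, was at 99.7 and 91.0, 65.1 and 69.2, 87.3 and 61.1, and 74.5 and 87.4 CPM, lowest in the 3 libraries in which GC-rich genes were low. Tcf7l1, mainly a repressing TCF factor, was at 19.1 and 19.2, 12.5 and 12.2, 14.0 and 11.7, and 15.7 and 19.0 CPM. Its value for isoproterenol in WT was -0.64 ± 0.23 (edgeR adjusted p = 0.115), -0.05 with offsets, and -0.65 without Set7KO saline replicate 2 (0.0527).

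The feedback genes Axin2 and Nkd1, commonly read as targets of canonical Wnt signalling, showed no called difference. Axin2 was at 5.86 and 5.24 CPM in WT saline, 4.95 and 5.60 CPM in WT isoproterenol, 4.75 and 4.62 CPM in Set7KO saline, and 7.86 and 4.72 CPM in Set7KO isoproterenol. Its averaged isoproterenol value was 0.18 ± 0.22 on the log2 scale, with a 95% interval from -0.32 to 0.67, and its interval included 0 in all 7 comparisons. Nkd1 was at 2.76 and 2.19, 1.79 and 3.09, 1.76 and 1.10, and 3.67 and 2.78 CPM, with a value of 1.19 ± 0.40 for isoproterenol in Set7KO (edgeR adjusted p = 0.478) that was 1.12 ± 0.34 with offsets and 0.88 without Set7KO saline replicate 2. In WT the Nkd1 value was -0.02 ± 0.39.

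Lef1 and Tcf7, TCF factors also used by T cells, were low. Lef1 was at 0.299 and 0.365 CPM in WT saline, 0.318 and 0.0866 CPM in WT isoproterenol, 0.455 and 0.279 CPM in Set7KO saline, and 0.542 and 0.476 CPM in Set7KO isoproterenol. Tcf7 was at 1.23 and 1.06, 0.817 and 0.462, 1.14 and 1.40, and 1.26 and 1.10 CPM. Tcf7 was lowest in the WT isoproterenol libraries. The sum of 10 T cell markers was also lowest there, at 4.33 and 3.00 CPM against 7.46 to 11.6 CPM in the other libraries. So were the sums of B cell markers, at 1.91 and 0.866 CPM, and of macrophage markers, at 165 and 149 CPM. Single markers did not all follow these sums. Of the macrophage markers, Csf1r, Cd68, C1qa and C1qb were lowest in the WT isoproterenol libraries. Mrc1, at 12.0 and 9.55 CPM there, and Adgre1, at 7.69 and 6.64 CPM, were not. Neither were the T cell markers Cd4, Cd8a and Il7r or the B cell markers Ms4a1 and Pax5 lowest in both. Tcf7 was highest in Set7KO saline replicate 2, where the T cell sum was 7.65 CPM. The part of these cells in the Tcf7 level was not tested.

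**Figure D5:**
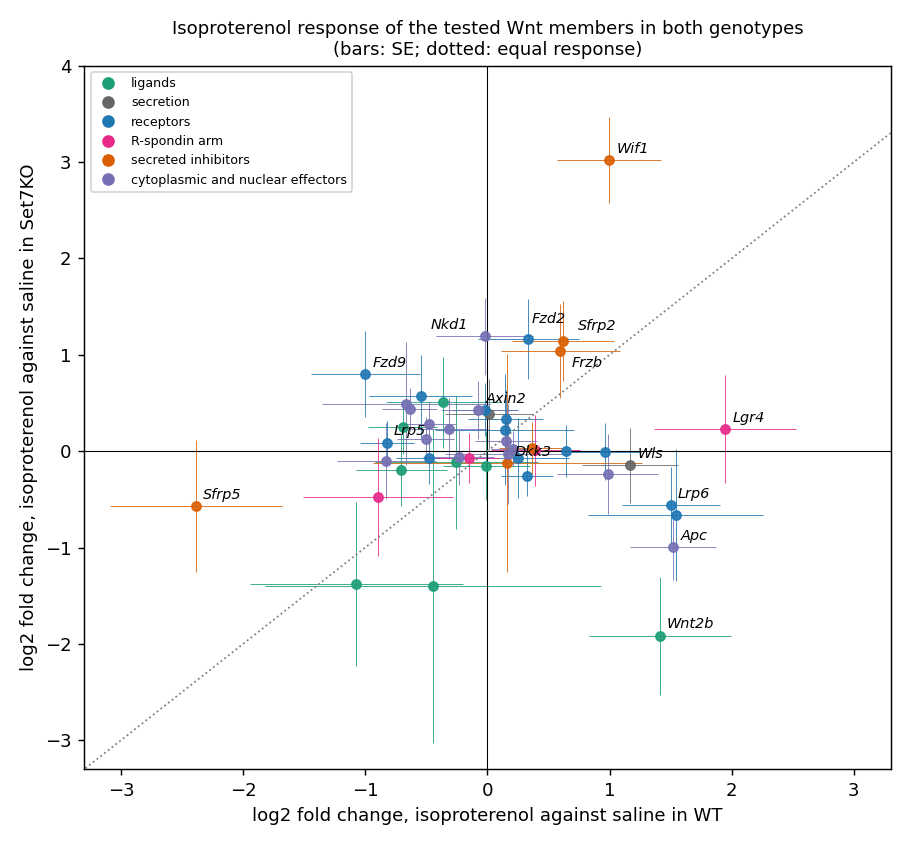
Log2 fold change of each of the 48 tested members for isoproterenol against saline in WT (horizontal) and in Set7KO (vertical), coloured by role, with bars for the SE and a dotted line of equal response. Wif1 lies far above the line at 1.00 and 3.02, and Wnt2b, Apc and Lrp6 lie to the right and below 0. The genotypes have separate libraries, but all share 1 estimate of spread.

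A list of 105 other genes of the pathway, covering further ligands, inhibitors, the destruction complex, nuclear cofactors, the planar polarity and calcium branches and reported targets, was counted beside the members. Of these, 87 were tested and edgeR called 0 in every comparison. For isoproterenol averaged, 4 of the 87 had an unadjusted p under 0.05, against 9.4% of all genes. Of these, 2 were higher, against 4.5% of all genes. Ccn5, a matricellular protein reported as a Wnt target, had the smallest p. It was at 17.2 and 9.18 CPM in WT saline, 25.2 and 23.3 CPM in WT isoproterenol, 11.9 and 5.28 CPM in Set7KO saline, and 34.7 and 38.5 CPM in Set7KO isoproterenol. As for Wif1, the isoproterenol libraries all lay above the saline libraries and the Set7KO ones were highest, with an averaged log2 fold change of 1.48 ± 0.30 (edgeR adjusted p = 0.186). Sost, a secreted inhibitor of Lrp5 and Lrp6, stood lower, at 0.498 to 1.69 CPM in saline and 0.182 to 0.375 CPM in isoproterenol, a log2 fold change of -1.93 ± 0.48 (edgeR adjusted p = 0.241). In WT, isoproterenol gave 15 of the 87 higher and 9 lower at that p, and in Set7KO it gave 3 and 2. Genotype after saline gave 5 and 4, genotype after isoproterenol 3 and 12, the interaction 5 and 12, and genotype averaged 0 and 0.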

How the data were processed

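Libraries of mRNA were made from total heart RNA with a TruSeq Stranded mRNA kit and read on an Illumina NextSeq, per the labels' protocols. The authors deposited whole-number counts per gene for 8 libraries. HISAT2, StringTie and edgeR and the build GRCm38 are named in the submitters' processing notes, while no source used here gives versions, filters or the use of strand in counting. Without strand, reads of overlapping antisense genes cannot be told apart.

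Symbols, positions and exon lengths came from GENCODE M21, which named 55227 of 55487 identifiers. edgeR 4.0.16 (R 4.3.3) was run on the 8 libraries together with 1 mean for each of 4 groups, using TMM normalization and filterByExpr, which kept 17636 genes. Two-sided quasi-likelihood F-tests were adjusted by Benjamini-Hochberg over all genes within each of 7 contrasts at a threshold of 0.05. Residual degrees of freedom were 4 and prior ones 4.36, and the biological coefficient of variation was 28.4%. Values after ± are standard errors from the F statistic. Intervals are 95%. The GC and length offsets are natural splines with 5 degrees of freedom each, fitted to these same counts in each library. They therefore also remove any treatment difference linked to GC content or length. In WT the GC shift goes with treatment, so the shift and such a difference cannot be told apart. The scripts were tested on simulated data. DESeq2 1.42.0, limma-voom (limma 3.58.1), other scalings, filters, fits of only the 2 groups compared and left-out libraries were the alternatives.

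The members and lists were chosen with earlier results of these data known. Per-library values are given for members with an unadjusted p under 0.05, no overlap and a mean of at least 1 CPM (up to 10 per contrast), for the 2 highest per kilobase in each role, and for Axin2, Lef1, Tcf7, Nkd1, Wnt10a, Wif1 and Setd7. Wnt2b, Gsk3b, Sfrp4, Rnf43, Rspo1, Lgr5, Ccn5 and Sost were added after their values were seen.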

Additional observations from a re-analysis of the deposited data

How the results depend on the processing

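No paired analysis was possible because the labels give no replicate numbers and replicates were numbered in accession order. With 2 libraries in a group, leaving 1 out leaves a lone library that is assumed to vary like the other groups. DESeq2 size factors, upper quartile normalization, a filter of 1 CPM in 2 libraries, limma-voom and the offsets with all libraries called no member in any contrast.

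The count of members called was 0 in each contrast, with these exceptions. For isoproterenol in WT it was 4 with no filter, 7 with DESeq2, 11 with only the 2 groups compared and 0 to 8 with single libraries left out (7 without Set7KO saline replicate 1 and 8 without replicate 2). For isoproterenol in Set7KO it was 1 with no filter, 1 with DESeq2 and 0 to 5 with libraries left out (5 without Set7KO saline replicate 1: Apc, Fzd2, Frzb, Wif1 and Sfrp2). For genotype after saline it was 0 to 2 with libraries left out (2 without Set7KO saline replicate 1), and for genotype after isoproterenol 2 with DESeq2 and 4 with only the 2 groups. For the interaction it was 3 with no filter, 5 with DESeq2, 1 (Wnt2b) with offsets and without Set7KO saline replicate 1, and 0 to 16 with libraries left out (16 without that replicate). For isoproterenol averaged it was 1 with no filter and 1 with DESeq2, Wif1 in both. The shares of all genes called by DESeq2 are given above. For the other settings the counts over all genes follow, but the number of genes tested in each was not tabulated. Their shares are therefore not given, and the counts of members are not read as a result about the members.

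Over all genes, isoproterenol in WT called 0, against 3 with DESeq2 size factors, 1512 with no filter, 3 with the CPM filter, 2719 with DESeq2, 3 with offsets, 3 with offsets without either Set7KO saline replicate, 5043 with only the 2 groups and 0 to 3765 with libraries left out (3676 and 3765 without Set7KO saline replicates 1 and 2). Isoproterenol in Set7KO called 0, against 31 with no filter, 101 with DESeq2, 1 with offsets without Set7KO saline replicate 2 and 0 to 486 with libraries left out (486 without replicate 1). Genotype after saline called 1, against 19 with no filter, 21 with DESeq2, 0 with offsets without Set7KO saline replicate 1, 0 with only the 2 groups and 0 to 1030 with libraries left out (1030 without that replicate). Genotype after isoproterenol called 1, against 3 with no filter, 297 with DESeq2, 1303 with only the 2 groups and 0 to 2 with libraries left out. The interaction called 0, against 1686 with no filter, 2321 with DESeq2, 493 and 1 with offsets without Set7KO saline replicates 1 and 2, and 0 to 5778 with libraries left out (5778 without replicate 1). Isoproterenol averaged called 9, against 159 with no filter, 14 with limma-voom, 251 with DESeq2, 4 with offsets without Set7KO saline replicate 2 and 0 to 42 with libraries left out (34 and 42 without Set7KO saline replicates 1 and 2). Genotype averaged called 1, against 2 with no filter, 2 with DESeq2, 2 with offsets without Set7KO saline replicate 2 and 1 to 2 with libraries left out. The cause of these differences was not tested.

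Of 917 alternative values for 52 fold changes, 829 kept their direction and their side of the threshold, 70 passed it, 11 no longer passed (all of Setd7) and 7 turned. Wls for isoproterenol in WT was -0.066 with offsets, -0.065 with offsets without Set7KO saline replicate 1 and -0.058 without replicate 2. Its interaction was 0.53, 0.42 and 0.67 in the same settings, and that of Fzd4 was 0.070 with offsets without replicate 2. Depth limits the members under about 1 CPM, where 2 libraries a group cannot separate small differences from counting error.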
